A study of Mus musculus with 2 samples.

Results

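Heterotrimeric G proteins and the RGS proteins that switch them off were examined as 48 genes in the granule layer of the adult mouse cerebellum. The genes were picked by symbol, with no threshold on their values but with earlier results of these data known: 15 G alpha, 5 G beta, 12 G gamma and 15 RGS genes, with Rgs7bp, a binding protein of the R7 class of RGS proteins, out of 43346 genes with an Ensembl identifier in the files. RNA was measured in 2 areas cut from the layer by laser capture, each of 18000 square microns, with a stated input of 50 cells and with 1 Smart-seq library per area. Smart-seq copies and amplifies polyadenylated RNA over its full length. The tissue came from male wild-type C57Bl6 mice (strain B6NCrl) aged 8 months, no treatment or transgene was named, and both areas form 1 group. They are called replicates 1 and 2 here after the labels. Both carry 1 donor label, and whether they came from separate animals was not stated, so the spread between them may be technical.

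A G protein is a molecular switch below the seven-helix receptors for transmitters and hormones. When a receptor is activated, the alpha subunit binds GTP and parts from the beta-gamma dimer, and both then act on enzymes and channels. Alpha subunits of the Gs/olf class stimulate adenylyl cyclase, those of the Gi/o class inhibit it, Gq/11 subunits activate phospholipase C beta, and G12/13 subunits act through exchange factors of small GTPases. RGS proteins speed the hydrolysis of GTP by alpha subunits and so end the signal. In the cerebellum, granule cells are the small excitatory neurons that relay mossy fibre input to Purkinje cells through parallel fibres, and Gi/o-coupled receptors such as GABA-B receptors reduce their output.

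The alpha classes and the gamma subunits differ in sequence at the ends of their coding regions, which are shown for alpha genes chosen to cover the 4 classes, with Gnaz for its different codon, and for 5 of the most abundant gamma genes. Each run below is the last 24 coding bases before the stop codon of the member's leading transcript with a complete coding region, 5′ to 3′ on the coding strand, from the GENCODE M21 transcripts (GRCm38), with the fourth codon from the end in capitals. In G alpha subunits this tail contacts the receptor, and a cysteine at that codon is the residue that pertussis toxin modifies.
Gnas (chr2:174346362-174346385, plus strand): catctccgccaaTACgagctgctc
Gnai1 (chr5:18267022-18267045, minus strand): aacctaaaagacTGTggtctcttc
Gnao1 (chr8:93967029-93967052, plus strand): aatctccggggcTGCggcttgtac
Gnaz (chr10:75015186-75015209, plus strand): aatctcaagtacATCggcctttgc
Gnaq (chr19:16383368-16383391, plus strand): aacctgaaggagTACaatctggtc
Gna11 (chr10:81530798-81530821, minus strand): aacctgaaggagTACaacctggtg
Gna13 (chr11:109396460-109396483, plus strand): aacctgaagcagCTCatgctgcag
TGT and TGC encode cysteine, TAC tyrosine, ATC isoleucine and CTC leucine. A cysteine codon stood there in 6 of the 14 G alpha genes read, namely Gnai1, Gnai2, Gnai3, Gnao1, Gnat1 and Gnat2. Gnaq and Gna11 shared 22 of the 24 bases. In G gamma subunits the same codon encodes the cysteine that receives a lipid anchor, and the last codon bears on which lipid is attached: leucine goes with geranylgeranyl and serine with farnesyl.
Gng3 (chr19:8838146-8838169, minus strand): aagaagttcttcTGTgcgctcctc
Gng13 (chr17:25719006-25719029, plus strand): gagaaggccaagTGCaccatccta
Gng5 (chr3:146503359-146503382, plus strand): ccccagaaagtcTGCtcctttttg
Gng2 (chr14:19875810-19875833, minus strand): aagaagttcttcTGCgccatcctt
Gng11 (chr6:4008134-4008157, plus strand): gaaaagggcagcTGTgtcatttca
All 12 G gamma genes had a cysteine codon at that place, with a last codon for leucine in 9 and for serine in 3 (Gng11, Gngt1 and Gngt2).

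The libraries held 20532709 counts in replicate 1 and 19939370 in replicate 2. Of these, 19962271 and 19261911 counts fell on genes with an Ensembl identifier. With 3 counts of that total as the floor, a gene with no counts could still have reached 0.15 CPM (counts scaled to a common library total) in the library of replicate 1 and 0.156 CPM in that of replicate 2. Reads from amplified libraries are not independent molecules, so floors and tests here cover counting error only. All 8 granule neuron markers were detected in both areas, with summed levels of 2773 TPM (a level per transcript length, scaled to a fixed library total) in replicate 1 and 3034 TPM in replicate 2. Other cells were present: Bergmann glia and astrocyte markers summed to 607 and 568 TPM, oligodendrocyte markers to 551 and 680 TPM, endothelial markers to 218 and 172 TPM, microglial markers to 86.7 and 66.0 TPM, and Golgi cell markers to 46.8 and 34.3 TPM, in replicates 1 and 2 in that order. The areas stood farthest apart in red blood cell markers, at 5040 TPM in replicate 1 and 390.1 TPM in replicate 2. In such mixed tissue, fewer cells of a type and less RNA per cell cannot be told apart.

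A gene was called detected in an area at 1 TPM or more with an expected count of at least 5. By that rule 35 of the 48 genes were detected in both areas, against 50.4% of protein-coding genes and 28.9% of all genes. Rgs4, Rgs9, Rgs12 and Rgs16 were detected in exactly 1 area. The 9 detected in neither were Gnat2, Gna14, Gna15, Gnb3, Gng4, Gng8, Gngt1, Rgs11 and Rgs14. Of these, Gna15, which couples receptors of blood cells to phospholipase C, and Gngt1, the rod photoreceptor gamma subunit, had 0 counts in both areas; the floor corresponded to 0.156 and 0.160 TPM for Gna15 and to 0.0885 and 0.0910 TPM for Gngt1 in replicates 1 and 2. The median over all 48 genes was 11.4 TPM, against 1.42 TPM over protein-coding genes, and 26 of them averaged at least 10 TPM, 12 at least 50 TPM and 6 at least 100 TPM. Those 6 were Gnb1, Gnas, Gng3, Gng13, Gnai1 and Gng5, and Gnb1 ranked 247th among all genes by mean TPM.

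**Figure D1:**
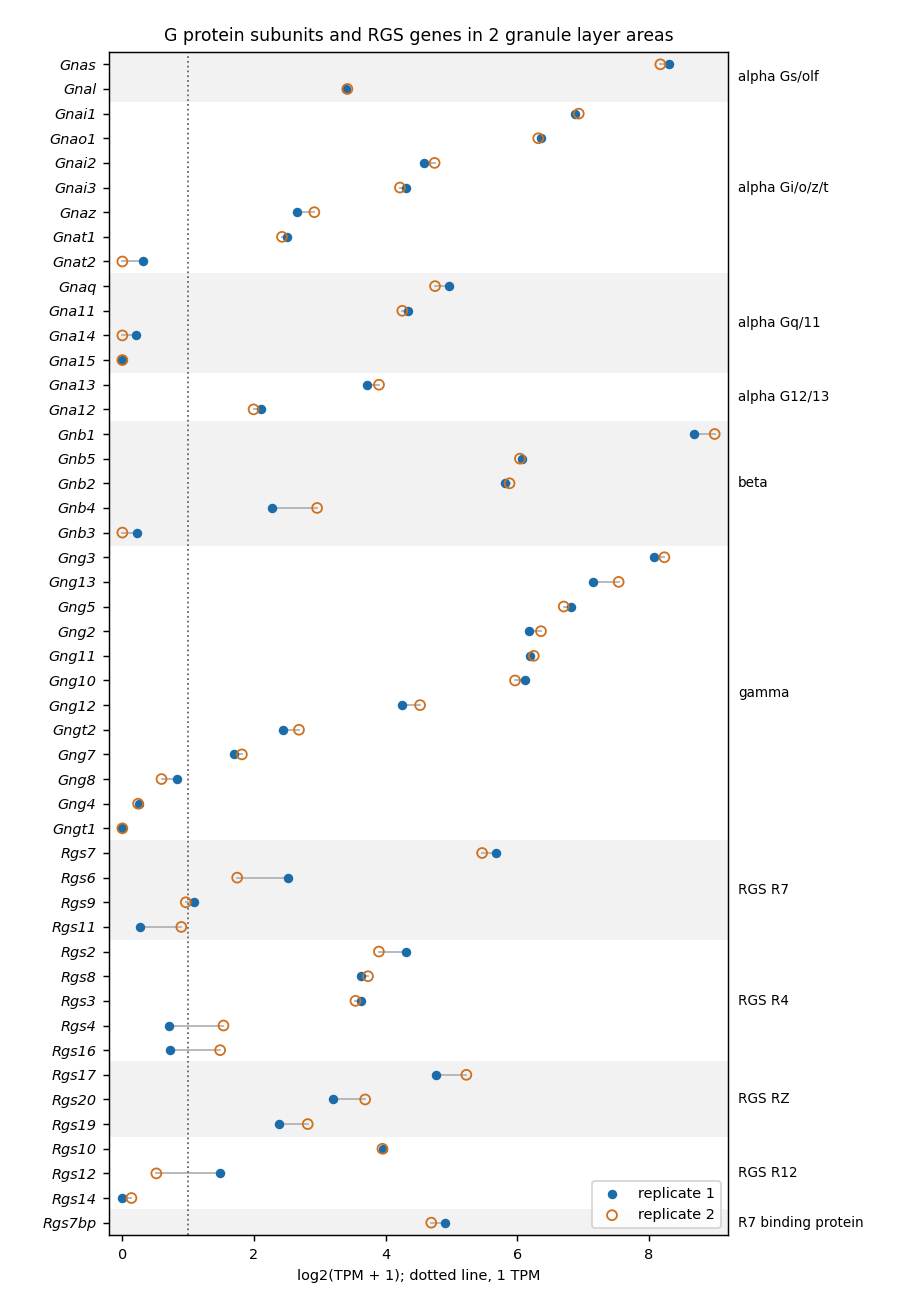
Level of each of the 48 genes on a log2(TPM + 1) axis, with filled points for replicate 1, open points for replicate 2 and a dotted line at 1 TPM. Within most classes 1 or 2 genes stand far above the rest, and the 9 genes detected in neither area lie left of the line.

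Among the alpha subunits, the Gs/olf class and the Gi/o/z/t class held most of the RNA. Gs/olf genes summed to 324 TPM in replicate 1 and 297 TPM in replicate 2, or 49.6% ± 1.56 of all G alpha TPM (SD, n = 2 areas). Gi/o/z/t genes summed to 250 and 254 TPM, or 40.3% ± 1.72. Gq/11 genes held 7.46% ± 0.401 and G12/13 genes 2.59% ± 0.234. Neighbouring classes in that order differed by more than the spread between areas. On expected counts not divided by length, the leading classes stood the other way round, at 35.3% for Gs/olf and 46.7% for Gi/o/z/t.

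Gnas, which encodes the Gs alpha subunit, was at 315 TPM in replicate 1 and 288 TPM in replicate 2 and made up 96.9% of its class. Gnal, which encodes the olfactory and striatal form Golf, was at 9.57 and 9.69 TPM, which were not told apart beyond counting error (exact binomial test, adjusted p = 0.732). Of the Gi/o/z/t class, Gnai1 led at 117 and 121 TPM, or 47.2% of the class. Gnao1, which encodes the neuronal Go alpha subunit, followed at 81.2 TPM in replicate 1 and 78.8 TPM in replicate 2. Gnai2 was at 23.0 and 25.8 TPM and Gnai3 at 18.8 and 17.6 TPM. Gnaz, the member whose tail carries isoleucine at the codon shown above and which pertussis toxin therefore does not modify, was at 5.29 and 6.55 TPM. The 6 genes with a cysteine codon there summed to 244 TPM in replicate 1 and 248 TPM in replicate 2, which was 40.0% ± 1.60 of the TPM of the 14 genes with a sequence. These are gene levels and include noncoding transcripts, such as Gnat1-204 at 4.66 and 4.37 TPM and Gnao1-205 at 10.93 and 9.5 TPM.

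Gnat1, the rod transducin alpha subunit, was listed at 4.66 and 4.37 TPM, but every count was on Gnat1-204, a noncoding transcript of 525 bases, with 34 and 31 counts. Its protein-coding transcripts were at 0 in both areas. Of the Gq/11 class, Gnaq was at 30.2 TPM in replicate 1 and 25.9 TPM in replicate 2, and Gna11 at 19.2 and 18.1 TPM. The files gave a posterior SD of 0 counts for both genes, so the authors' estimate left no spread from reads that could belong to either gene, despite the similar tails. Of the G12/13 class, Gna13 was at 12.2 and 13.9 TPM and Gna12 at 3.32 and 2.98 TPM. Along the order of the 15 alpha genes by mean TPM, the values of neighbours overlapped between areas in 3 of 14 pairs: Gna11 with Gnai3, Gnat2 with Gna14, and Gna14 with Gna15.

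**Figure D2:**
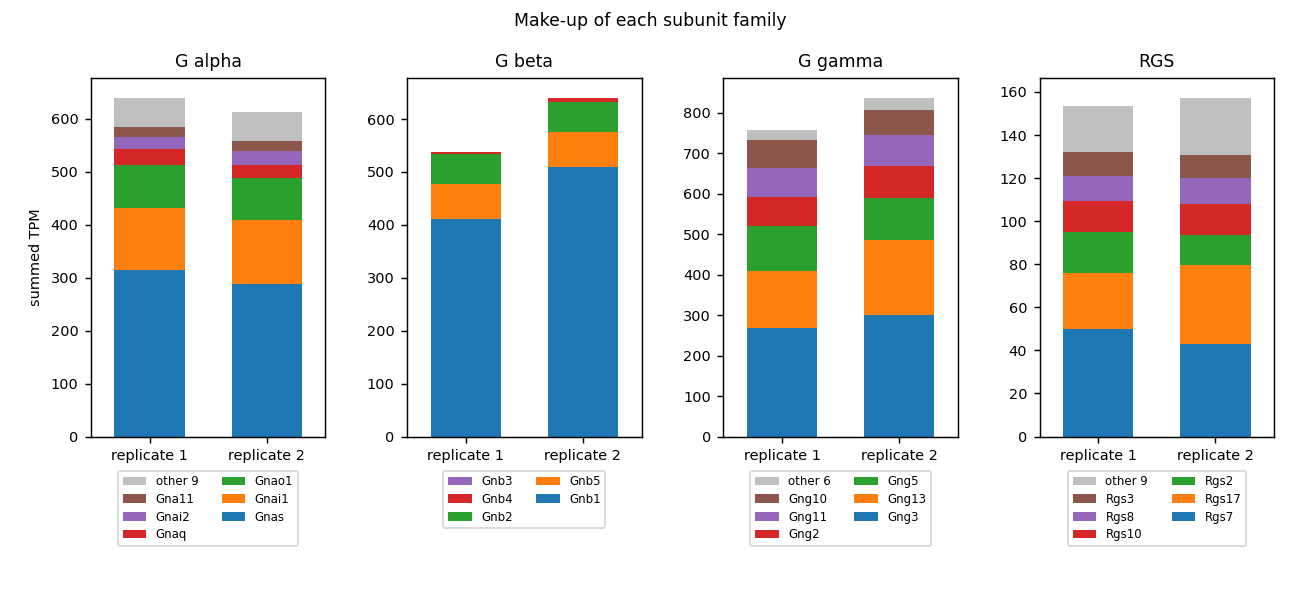
Summed TPM of the G alpha, G beta, G gamma and RGS genes in each area, stacked by gene, with up to 6 of the most abundant genes named and the rest in grey. Gnas and Gnb1 take the largest blocks of their families in both areas, whereas the G gamma and RGS bars are divided among several genes.

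Beta subunits came mainly from 1 gene. Gnb1 was at 412 TPM in replicate 1 and 510.3 TPM in replicate 2, or 78.2% ± 2.20 of G beta TPM. Gnb5, the divergent beta subunit that pairs with R7 RGS proteins instead of a gamma subunit, was at 66.5 and 64.8 TPM. Its only transcript in the files is 1188 bases long, the length of its coding region with the stop codon, so its level was measured over the coding length alone. Gnb2 was listed at 55.0 and 58.0 TPM, Gnb4 at 3.82 and 6.77 TPM, and Gnb3, which serves cone photoreceptors and retinal bipolar cells, at 0.17 and 0 TPM. No neighbours in the order of the 5 beta genes overlapped between areas.

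Gamma subunits were spread over more genes, and 9 of the 12 were detected in both areas. Gng3, a neuronal gamma subunit, was at 268 TPM in replicate 1 and 300.0 TPM in replicate 2, or 35.7% ± 0.287 of G gamma TPM. Gng13, a gamma subunit known from taste cells, was at 140.3 and 185 TPM and was the second most abundant by TPM. Then came Gng5 at 111 and 103 TPM, Gng2 at 71.7 and 81.1 TPM, Gng11 at 71.9 and 75.1 TPM, and Gng10 at 68.2 and 61.5 TPM. Gng2 and Gng11 were the only neighbours in the order whose values overlapped. The rank of Gng13 depended on length, as its leading transcript is 347 bases long. On counts not divided by length, Gng13 had 692 in replicate 1 and 880 in replicate 2. Gng2, with 2331 and 2431 counts, and Gng10, with 1224 and 1064, stood above it in both areas. Gng12 was at 17.9 and 21.98 TPM, Gngt2, the cone gamma subunit, at 4.44 and 5.42 TPM, and Gng7, the striatal partner of Golf, at 2.24 and 2.52 TPM. By the last codon shown above, genes ending in leucine held 90.1% ± 0.321 of G gamma TPM and genes ending in serine 9.85% ± 0.321, nearly all of it Gng11.

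The 15 RGS genes summed to 154 TPM in replicate 1 and 157 TPM in replicate 2, against 639 and 612 TPM for the 15 G alpha genes. Within the R7 class, which acts on Gi/o subunits and needs Gnb5, Rgs7 was at 50.0 and 43.2 TPM and made up 90.2% of the class. Rgs6 was at 4.74 and 2.35 TPM, Rgs9, the photoreceptor and striatal form, at 1.12 and 0.95 TPM, and Rgs11, which is known from retinal bipolar cells, at 0.20 and 0.86 TPM. Rgs7bp, which tethers R7 complexes to the membrane, was at 29.0 TPM in replicate 1 and 24.9 TPM in replicate 2.

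The RZ class, which includes regulators of Gz and other Gi-type subunits, was led by Rgs17 at 26.1 TPM in replicate 1 and 36.4 TPM in replicate 2. Rgs20 was at 8.15 and 11.9 TPM and Rgs19 at 4.22 and 6.04 TPM, and of the 3 genes only Rgs17 differed beyond counting error in the test given below (exact binomial test, adjusted p = 0.1196 for Rgs20 and 0.0605 for Rgs19). Of the R4 class, the small RGS proteins, Rgs2 was listed at 18.9 and 13.9 TPM, Rgs8 at 11.3 and 12.3 TPM, and Rgs3 at 11.4 and 10.6 TPM. Rgs8 is also known from Purkinje cells, whose 6 markers summed to 105 TPM in replicate 1 and 174 TPM in replicate 2 with 4 of them detected in both areas. Most of that sum was Pcp2, at 91.1 and 158 TPM, whereas Calb1 was at 6.83 and 7.89 TPM, Car8 at 1.68 and 2.21 TPM and Slc1a6 at 0.38 and 1.33 TPM. Itpr1, at 4.95 and 3.81 TPM, and Ppp1r17, at 0.57 and 0.44 TPM, stood the other way. The part of Purkinje cells in the Rgs8 level was not tested.

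Rgs4 was at 0.63 TPM in replicate 1 and 1.90 TPM in replicate 2, and Rgs16 at 0.65 and 1.80 TPM. Of the R12 class, Rgs10, which is abundant in microglia, was at 14.6 and 14.5 TPM, Rgs12 at 1.80 and 0.43 TPM, and Rgs14, known from hippocampal area CA2, at 0 and 0.10 TPM. The microglial markers, with 5 of 6 detected in both areas, summed to 86.7 and 66.0 TPM; the part of microglia in the Rgs10 level was not tested. Neighbours in the order of the RGS genes overlapped between areas in 7 of 14 pairs, so that below Rgs17 much of that order was not resolved.

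Differences between the areas were small for most of these genes. On the log2(TPM + 1) scale none of the 42 tested genes (summed count of at least 10) differed more than 2-fold, against 3.16% of all 16636 genes tested. The nearest was Rgs12, with a replicate 2 minus replicate 1 difference of -0.97. With a pseudocount of 0.1 in place of 1, Rgs4, Rgs11, Rgs12 and Rgs16, all averaging under 1.5 TPM, differed more than 2-fold. The share of all genes over 2-fold apart at that setting is not given here, so this does not single out these genes. The median absolute difference was 0.17 over the 42 genes and 0.21 over all genes tested; among genes averaging at least 10 TPM it was 0.15 for these genes and 0.15 for all. By a two-sided exact binomial test on counts with Benjamini-Hochberg adjustment over all genes tested, which compares these 2 libraries and not conditions, 19 of the 42 genes differed beyond counting error, against 47.6% of all genes. That share of these genes was close to the background share.

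**Figure D3:**
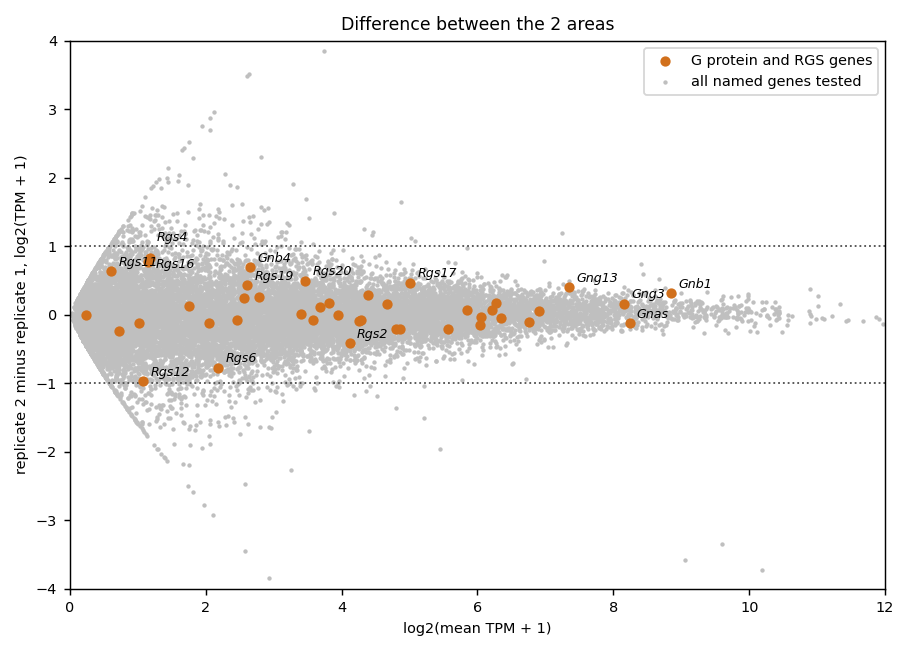
Replicate 2 minus replicate 1 difference on the log2(TPM + 1) scale against log2(mean TPM + 1), with the G protein and RGS genes as large points over all named genes tested and dotted lines at 2-fold. The large points lie between the lines, and those farthest from 0 are mostly low-level RGS genes; 24 genes lie outside the axes.

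Of the 19, 11 had both TPM and CPM higher in replicate 2, 7 had both higher in replicate 1, and Gna13 had higher TPM in replicate 2 but higher CPM in replicate 1. The largest count behind a difference was that of Gnb1, with 19184 counts in replicate 1 and 23219 in replicate 2, a log2 difference of 0.31 (exact binomial test, adjusted p = 5.57e-117). Gng13 differed by 0.40 (adjusted p = 5.47e-07 by the same exact test), and of the 6 Purkinje cell markers given above 4 had higher TPM in replicate 2 and 2, Itpr1 and Ppp1r17, in replicate 1. The part of Purkinje cells in the Gng13 difference was not tested. Rgs17 differed by 0.47 (exact test, adjusted p = 6.46e-08) and Rgs7 fell by 0.21 in replicate 2 relative to replicate 1 (exact test, adjusted p = 5.39e-05). When every 10 reads were taken as 1 molecule, only Gnb1, which had the largest counts of these genes, passed (exact test, adjusted p = 1.41e-10). The share of all genes passing at that setting is not given here, so this does not single out Gnb1.

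For Rgs2 and Gnb4 the TPM values stood farther apart than the counts, and the estimated transcript length differed between areas. Rgs2 had 345 counts in replicate 1 and 332 in replicate 2, and its mean transcript length in the files was 1163 and 1533 bases. Its TPM difference of -0.42 on the log2(TPM + 1) scale thus came with counts that did not differ beyond counting error (exact binomial test, adjusted p = 1). Gnb4 had 220 and 252 counts at lengths of 3458 and 2334 bases, and its log2 difference of 0.69 also did not pass on counts (exact test, adjusted p = 0.116). Gna13 had lengths of 4922 and 3779 bases. Rgs12 and Rgs6 differed beyond counting error on counts, but their TPM values also stood farther apart than their CPM. Rgs12, at 1.80 and 0.43 TPM, had 3.01 and 1.30 CPM at lengths of 2049 and 3564 bases. Rgs6, at 4.74 and 2.35 TPM, had 11.1 and 8.31 CPM at lengths of 2834 and 4181 bases.

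The transcript values, which are the authors' fractional estimates, divide these levels among annotated RNA forms. Whether each form was present as annotated was not tested. Of the 26 genes averaging at least 10 TPM, 20 have 2 or more transcripts in the files, and the leading transcript held a median of 72.0% of its gene. The leading transcript was a protein-coding one in 16 of the 20. As a mean of the areas, protein-coding transcripts held at least 90% of the TPM in 13 of the 20 and under 50% in 3: Gnb2, Rgs3 and Rgs2. For Rgs2 the share was 33.7% in replicate 1 and 62.9% in replicate 2, so it was under 50% in 1 area only.

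**Figure D4:**
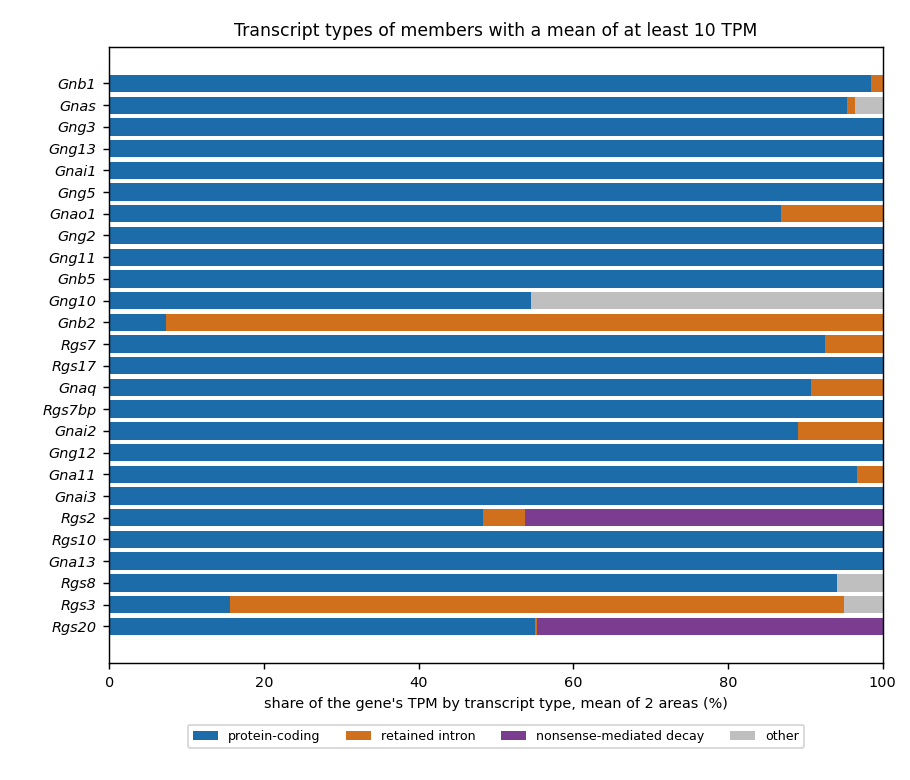
Share of each gene's TPM in protein-coding, retained-intron, nonsense-mediated decay and other transcripts, as the mean of the 2 areas, for the 26 genes averaging at least 10 TPM in descending order of level. Gnb2 and Rgs3 are mostly retained-intron transcripts, Rgs2 and Rgs20 hold large nonsense-mediated decay shares, and Gng10 holds a large share of a noncoding transcript.

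Gnb2 was the clearest case, with 92.6% of its TPM on retained-intron transcripts. Gnb2-213, a retained-intron model of 712 bases, held 78.1% of the gene in replicate 1 and 72.7% in replicate 2, and Gnb2-210, another such model, 14.6% and 17.5%. Protein-coding Gnb2 transcripts came to 3.54 and 4.83 TPM. Over protein-coding transcripts alone, Gnb1 made up 86.3% of G beta TPM. Retained-intron models of Rgs3 held 79.3%, led by Rgs3-207 at 76.2% and 74.0%, and its coding transcripts came to 2.01 and 1.44 TPM.

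By TPM, Rgs2 had a different leading form in each area. Rgs2-201, annotated as a target of nonsense-mediated decay, held 62.4% in replicate 1 and 30.2% in replicate 2, and the coding transcript Rgs2-202 held 19.1% and 36.5%. On counts not divided by length, Rgs2-202, of 3021 bases, stood above Rgs2-201, of 763 bases, in both areas. The counts were 181 against 134 in replicate 1 and 247 against 46.4 in replicate 2. Its coding transcripts together were at 6.38 TPM in replicate 1 and 8.75 TPM in replicate 2, the opposite order to the gene's listed TPM. For Rgs20, the decay target Rgs20-207 held 46.1% and 43.4% of TPM, and the coding transcript Rgs20-201 held 50.3% and 32.4%. Rgs20-207 is 577 bases long and had 30.8 counts in replicate 1 and 41.1 in replicate 2. Coding Rgs20 transcripts had 128 and 145 counts. Gng10-202, a noncoding transcript, held 41.6% and 49.4% of Gng10. Among the RGS genes with coding forms, Rgs7 was divided among Rgs7-206 at 43.3% and 38.3%, Rgs7-203 at 29.8% and 33.8%, and Rgs7-207 at 18.5% and 20.8%.

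Gnas is known for alternative promoters, an imprinted locus and an alternative coding exon that gives a long and a short Gs alpha. That exon is 45 bases at chr2:174336747-174336791 on the plus strand (GENCODE M21, GRCm38), and it is shown because both leading transcripts differ by it.
Gnas exon of the long form: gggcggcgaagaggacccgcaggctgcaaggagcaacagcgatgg
Gnas-208, with the exon and 1182 coding bases, was at 193 TPM in replicate 1 and 151 TPM in replicate 2. Gnas-206, without it and with 1137 coding bases, was at 107 and 117 TPM. Transcripts with the exon held 64.3% of the coding Gnas TPM in replicate 1 and 55.6% in replicate 2, a mean of 59.9% ± 6.18 (SD, n = 2 areas). Of the transcripts that start at the upstream promoters, between positions 174284320 and 174297859, which give the neuroendocrine protein Nesp55 and the extra-large form of Gs alpha, the highest was Gnas-204, at 0.02 TPM in replicate 1 and 0 in replicate 2. Other Gnas transcripts start nearer to the leading ones, between positions 174327570 and 174328023. The highest of these by mean were the noncoding Gnas-217, at 3.91 and 4.61 TPM, and Gnas-219, at 4.52 and 2.16 TPM. Gnao1 has alternative coding ends. Gnao1-201 and Gnao1-203, which share the end shown above, held 73.8% and 12.0% of the gene in replicate 1 and 70.9% and 16.0% in replicate 2. Gnao1-207, with another coding end, was at 0.15 TPM in replicate 1 and 0 in replicate 2.

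Neighbouring genes could share reads with some of these. Of the 48 genes, 28 overlap another annotated gene and 8 overlap one detected in both areas, and the use of strand in counting is not given in the sources used here. Gng3 lies opposite Bscl2, which was at 55.4 TPM in replicate 1 and 56.7 TPM in replicate 2. Rgs20 lies opposite Atp6v1h, at 110.2 and 109 TPM, above Rgs20 itself. The posterior SD of the Rgs20 count was 0 in both areas, and overlaps here are of whole gene spans, not of exons. Whether Atp6v1h reads entered the Rgs20 level was not tested. Gng10 shares its strand with Gm20503, at 7.93 and 8.51 TPM. The posterior SD of the count was above 1 in 5 of the 48 genes and was highest for Gnas, at 67.3 counts in replicate 1.

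Partners of G proteins were read from 39 further genes. Of these, 27 were detected in both areas, against 50.4% of protein-coding genes and 28.9% of all genes. Beyond counting error, 17 of the 29 tested differed (the background was 47.6%). The beta-gamma-gated potassium channel subunits Kcnj3, Kcnj6 and Kcnj9 were detected and Kcnj5 was at 0. Kcnj3 was at 51.8 TPM in replicate 1 and 56.9 TPM in replicate 2, Kcnj6 at 22.9 and 22.4 TPM, and Kcnj9 at 13.5 and 11.2 TPM. Of the R7 anchors, the orphan receptor Gpr158 was at 27.4 and 27.1 TPM, close to Rgs7bp, whereas Rgs9bp was at 0.09 and 0.06 TPM and Gpr179, an anchor of retinal bipolar cells, was at 0.

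Of the chaperones, GoLoco proteins and phosducin-like proteins, 7 of 10 were detected in both areas. Pcp2, a GoLoco protein and Purkinje cell marker, was the highest by mean. Pdcl3, a phosducin-like cochaperone, was at 92.3 TPM in replicate 1 and 79.8 TPM in replicate 2, and Gpsm1, a GoLoco protein that binds Gi alpha, at 16.2 and 21.02 TPM. Pdc, the phosducin of photoreceptors, was at 0 in both areas.

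Of the receptor kinases and arrestins, 7 of 8 were detected, led by Grk3 at 16.7 and 14.7 TPM, Grk2 at 11.1 and 12.9 TPM and Grk4 at 5.58 and 2.73 TPM. Grk1, a receptor kinase of photoreceptors, was at 0. All 3 exchange factors with an RGS domain were detected, with Arhgef12 at 10.8 and 10.5 TPM, Arhgef1 at 3.46 and 3.93 TPM, and Arhgef11 at 3.43 and 3.55 TPM. All 5 prenylation genes were detected, with Fnta at 38.6 and 29.6 TPM, Rce1 at 14.4 and 17.2 TPM, and Fntb at 16.8 and 13.5 TPM.

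**Figure D5:**
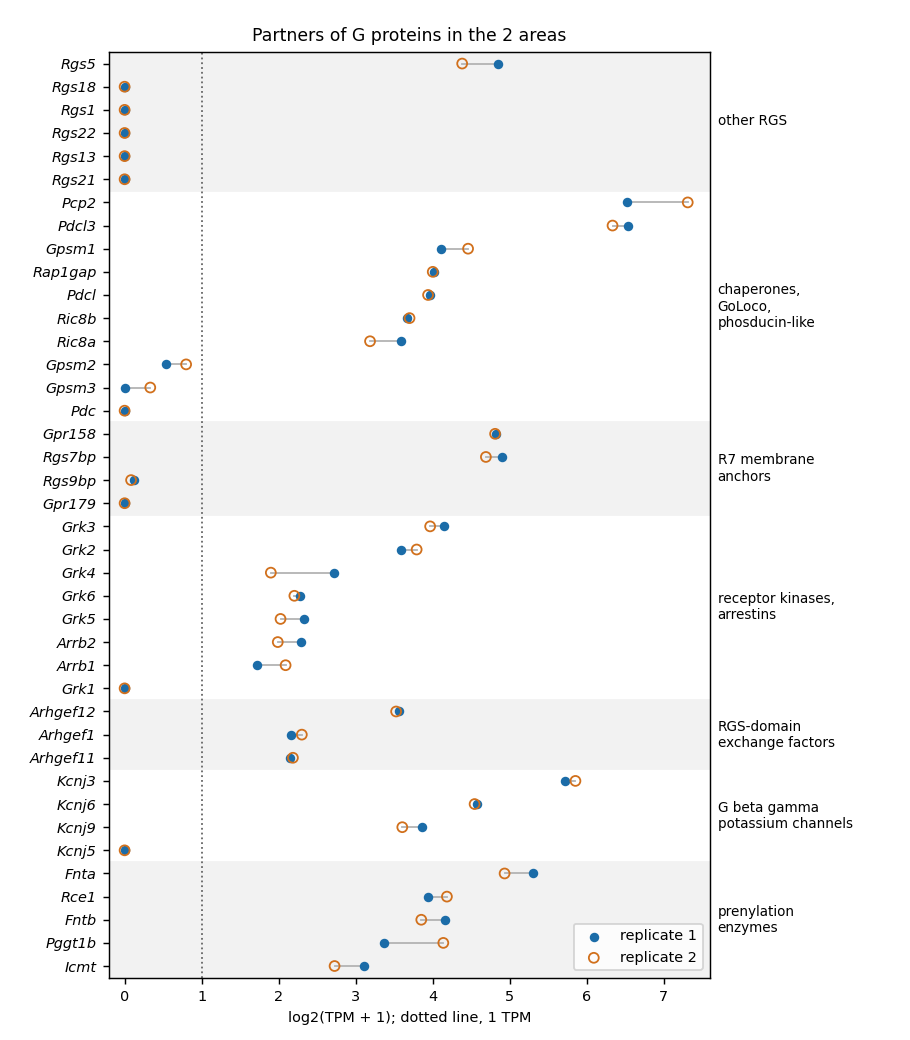
Level of each partner gene in the 2 areas on a log2(TPM + 1) axis, grouped by role, with filled points for replicate 1, open points for replicate 2 and a dotted line at 1 TPM. Kcnj5, Gpr179, Grk1, Pdc and 5 of the 6 other RGS genes lie at 0 in both areas, and Pcp2, Pdcl3 and Kcnj3 lie highest.

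Of the 6 RGS genes outside the 15, 5 (Rgs1, Rgs13, Rgs18, Rgs21 and Rgs22) were at 0 counts in both areas. Rgs5, a regulator known as a marker of pericytes, was at 27.9 TPM in replicate 1 and 19.9 TPM in replicate 2. Mural cell markers summed to 14.6 TPM in replicate 1 and 43.7 TPM in replicate 2 with 2 of 5 detected in both areas, the opposite order to Rgs5, although 1 of them, Kcnj8, was at 1.70 and 0.63 TPM. Acta2 and Tagln were at 0 in replicate 1 and at 6.35 and 4.28 TPM in replicate 2. Endothelial markers summed to 218 and 172 TPM with 5 of 5 detected, the same order. Their part in the Rgs5 difference was not tested.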

How the data were processed

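RNA was measured in 2 laser-captured granule layer areas, 1 library each. Per the file headers, the authors deposited expected counts, which are fractional estimates, beside TPM and FPKM values, both scaled by length and by library. Deposited score columns hold a posterior SD of the count and bounds on TPM, and a deposited percent column splits a gene's TPM among its transcripts. The build was mm10 with GENCODE M4, per the deposited notes. Which aligner and counting program were used, and whether strand was used, is not given in the sources used here.

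Members, lists and the rules below were chosen with earlier results of these data known. Genes were matched by identifier to GENCODE M21 (GRCm38), which named 42462 of 43346; 26345 of 69691 rows name no gene of the mouse annotation, held 2.78% and 3.40% of counts in replicates 1 and 2, and were left out of tests. Differences used log2(TPM + 1). Counts were rounded for the exact binomial test (scipy 1.17.1), against library totals, with a threshold of 0.05 after adjustment. The test was tried on simulated independent counts with known folds, which does not cover the effect of amplification. edgeR 4.0.16 (TMM) and DESeq2 1.42.0 size factors served only as other scalings of the counts. Named members were the 2 highest of each class, any over 2-fold apart, those at 0, and any averaging at least 10 TPM; the others were added so that all 48 are accounted for. The 3 highest of each partner list and those at 0 were named, and Rgs9bp was chosen after its values were seen. Sequences came from the M21 transcripts; none is printed for Gnal.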

Additional observations from a re-analysis of the deposited data

How the results depend on the processing

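Of 84 alternative values for 15 results, 62 stayed within 1.5 times the reported count or within 1 SD between the areas of the reported share, and 22 moved further. A share that differs little between areas thus counts as moved for a small shift. A class or leading member share with either area left out always stays within 1 SD, and FPKM only rescales TPM within a library. Those alternatives were bound to stay, so the tally does not measure robustness for them. The 35 genes detected in both areas became 42 at 0.1 TPM, 28 at 5 TPM and 38 with posterior mean TPM. The number of genes over 2-fold apart, 0 as reported, became 4 with a pseudocount of 0.1 (Rgs4, Rgs11, Rgs12 and Rgs16) and 1 with TMM-scaled or DESeq2-scaled CPM (Rgs4 under TMM). No share over all genes is given for those settings. The 19 genes beyond counting error became 1 with counts divided by 10, a setting for which no share over all genes is given. Expected counts, not divided by length, put the Gs/olf share of G alpha at 35.3%, Gi/o/z/t at 46.7%, Gq/11 at 13.6% and G12/13 at 4.37%, so that the order of the leading classes turned round. The same counts put Gnas at 89.98% of its class, Gnai1 at 52.6%, Gnaq at 70.1%, Gna13 at 84.0%, Gnb1 at 91.1% of G beta and Gng3 at 52.8% of G gamma. Posterior mean TPM put Gnai1 at 46.1%. Protein-coding transcripts alone, an alternative chosen after seeing the data, put Gnai1 at 50.7%, Gnaq at 58.4%, Gnb1 at 86.3%, Gng3 at 37.0% and Rgs7 at 34.2% of RGS TPM, and left 34 genes detected in both areas, without Gnat1. The median leading transcript share was 66.3% with posterior mean percentages and between 71.8% and 75.0% with 1 area left out. Results between areas have no value with an area left out. No paired analysis was possible because both areas belong to 1 group.

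With 2 areas of 1 group no test over samples exists, and p-values compare libraries only. TPM divides by the length of the authors' transcript models, and Gnb2, mostly on a short retained-intron model, had 605 counts in replicate 1 and 607 in replicate 2. Genes at or under the floor were not detectable at this depth, which does not show that they were absent.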
